A study of Mus musculus with 6 samples.

Results

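The 38 genes described here encode proteins of skeletal muscle fibres and were taken from a named list. For each gene the probe set whose mean over the 6 arrays was highest stood for it. All 38 were measured, out of 19937 genes with a single symbol on the array. RNA was taken from inguinal white adipose tissue, the subcutaneous fat depot of the groin, of 3 Atf7 knockout (KO) and 3 wild-type (WT) male mice. The KO mice lack Atf7, which encodes a stress-responsive transcription factor related to ATF2, and the WT mice were littermates bred from Atf7 heterozygotes. All were C57BL/6 and 5 weeks old, and each mouse gave 1 array. Which exons of Atf7 the allele lacks is not stated in the labels used here.

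Skeletal muscle contracts when thick filaments of myosin pull on thin filaments of actin, within sarcomeres anchored at the Z-disc and spanned by titin. Mammalian fibres are slow or fast, and each kind uses its own set of myosin chains, troponins and calcium-handling proteins. Fast fibres of mice are divided into types IIA, IIX and IIB by their myosin heavy chain. The inguinal fat pad lies under the skin, next to thigh and body wall muscle, and muscle fibres are not a component of adipose tissue itself.

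The muscle genes differed between single mice far more than between genotypes. Most of them were high in KO replicate 1, WT replicate 2 and WT replicate 3, and low in KO replicates 2 and 3 and WT replicate 1, so each genotype held both high and low mice. None of the 38 passed the test of KO against WT, and 0% of all 19937 genes did. Genes of fast fibres spanned up to 5.89 on the log2 scale between mice, while the 5 slow fibre genes spanned at most 0.89. All 5 slow genes lay below the median gene on every array, against 0 of the 13 fast genes and 45.8% of all genes. Only 2 of the 13 fast genes lay above the median gene on every array, against 9004 of all 19937 genes. Myh4, for example, lay below it on 3 arrays and Myh1 on 4. Whether the slow genes, or the fast genes on their low arrays, were above background was not tested. In a bulk sample, fewer cells of a type and less RNA per cell cannot be told apart, so these values do not say how many fibres a sample held. The source of the muscle RNA was not tested.

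Values below are log2 expression values as the authors deposited them, and a difference of 1 on that scale is a doubling. Array medians over all probe sets lay between 6.41 and 6.49. The targeted gene was checked with probe set 10433032 of Atf7, at 6.22, 6.53 and 6.49 in KO replicates 1, 2 and 3, against 8.95, 9.20 and 9.07 in WT replicates 1, 2 and 3. Its difference was -2.66 (SE 0.12, limma adjusted p 0.00658 over all probe sets), while a second probe set differed by -0.17 (adjusted p 0.73). KO replicate 3 stood apart from the other arrays. Its correlations with them over genes ran from 0.965 to 0.982, against 0.987 to 0.995 among the others. Its lymphocyte genes were also low, with a mean level over 10 B cell genes of -3.35, where a level is the mean over a list of each gene's log2 value minus its own mean over the 6 arrays. On the other arrays that level lay between 0.11 and 0.93. Muscle genes did not single out that array: their level was -0.90 in KO replicate 3, -0.82 in KO replicate 2 and -0.90 in WT replicate 1.

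The promoters of 4 members are shown because these genes are the ones the contrast turns on, 3 that moved together over a wide range and 1 slow fibre gene that did not. Acta1 encodes skeletal actin, Ckm the muscle creatine kinase, Myh4 the type IIB myosin heavy chain and Tnnc1 the troponin C of slow and cardiac muscle. Each line gives the 250 bases before the transcription start, 5′ to 3′ along the gene's strand, from RefSeq on build GRCm38.p6. Capitals mark CAGCTG, a form of the E-box that myogenic regulators such as MyoD bind.
Acta1, chr8:123894776-123895025, minus strand: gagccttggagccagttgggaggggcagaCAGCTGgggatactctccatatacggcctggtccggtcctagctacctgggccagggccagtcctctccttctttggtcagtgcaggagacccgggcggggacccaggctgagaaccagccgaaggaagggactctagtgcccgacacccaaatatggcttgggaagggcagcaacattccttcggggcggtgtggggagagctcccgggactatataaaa
Ckm, chr7:19410844-19411093, plus strand: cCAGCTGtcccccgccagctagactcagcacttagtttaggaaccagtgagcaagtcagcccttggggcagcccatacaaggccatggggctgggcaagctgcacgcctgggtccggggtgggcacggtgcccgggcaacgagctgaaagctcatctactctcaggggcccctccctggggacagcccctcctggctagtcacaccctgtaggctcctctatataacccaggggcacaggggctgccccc
Myh4, chr11:67237562-67237811, plus strand: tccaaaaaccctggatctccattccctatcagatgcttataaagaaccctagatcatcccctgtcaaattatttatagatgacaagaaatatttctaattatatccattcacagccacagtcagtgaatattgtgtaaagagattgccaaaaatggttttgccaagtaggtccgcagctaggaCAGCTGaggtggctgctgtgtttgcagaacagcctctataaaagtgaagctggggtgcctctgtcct
Tnnc1, chr14:31208062-31208311, plus strand: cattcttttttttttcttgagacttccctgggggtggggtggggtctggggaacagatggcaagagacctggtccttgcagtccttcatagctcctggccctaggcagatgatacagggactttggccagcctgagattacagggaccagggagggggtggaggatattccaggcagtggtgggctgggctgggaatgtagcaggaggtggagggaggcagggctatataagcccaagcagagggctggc
The first 3 hold 1 CAGCTG each and the Tnnc1 window holds 0, but the slow genes Myl2 and Tnni1 have it in theirs. The motif reads the same on both strands, and the looser form CANNTG, which includes it, was found on either strand in all 4. RefSeq windows were matched for 26 of the 38 members, which had 32 windows, and 15 of these (46.9%) held CAGCTG, against 13% of all 32851 windows of that length. For CANNTG the shares were 90.6% of member windows and 66.2% of all windows. A MEF2 site, named after the muscle factors that bind it, was found in 15.6% of member windows and 2.92% of all. A CArG box, bound by serum response factor, was found in the windows of Acta1 and Myh4, and in 1.47% of all. These matches describe letters and do not show binding.

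Among the myosin heavy chains, which are the motor of the thick filament, Myh4 (type IIB) varied the most. Its values were 9.26, 5.56 and 5.51 in KO replicates 1, 2 and 3, against 5.39, 10.64 and 8.58 in WT replicates 1, 2 and 3. The 3 high arrays came from both genotypes, and WT replicate 2 was at least 38.1-fold above WT replicate 1, a comparison of single mice with no test. Folds against such low values are lower bounds if those values lay at background, since the files hold no detection call. Myh4 averaged 6.78 ± 2.15 in KO and 8.21 ± 2.65 in WT (SD, n = 3 each), and its KO minus WT difference was -1.43 (SE 1.48, limma adjusted p 0.773).

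Myh1, the type IIX chain, was 7.61, 5.06 and 4.76 in KO replicates 1, 2 and 3, against 4.77, 8.04 and 5.19 in WT replicates 1, 2 and 3. Myh2, the type IIA chain, was 7.43, 5.48 and 5.77 in KO replicates 1, 2 and 3, against 5.91, 7.17 and 5.39 in WT replicates 1, 2 and 3. For both genes KO replicate 1 and WT replicate 2 were high, but WT replicate 3 was not: it lay with the low arrays, although its Myh4 was at least 9.15-fold above WT replicate 1. Myh7, the slow chain, was 6.34, 5.76 and 5.45 in KO replicates 1, 2 and 3, against 5.59, 5.59 and 5.55 in WT replicates 1, 2 and 3. Only KO replicate 1 exceeded 6 there, and the WT arrays lay within 0.05 of each other. The KO minus WT differences were -0.19 for Myh1, 0.07 for Myh2 and 0.27 for Myh7, with 95% intervals of -2.62 to 2.24, -1.36 to 1.50 and -0.22 to 0.77. The sequences of the array's probes were not used here, so cross-hybridisation between these similar myosin genes was not tested.

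**Figure D1:**
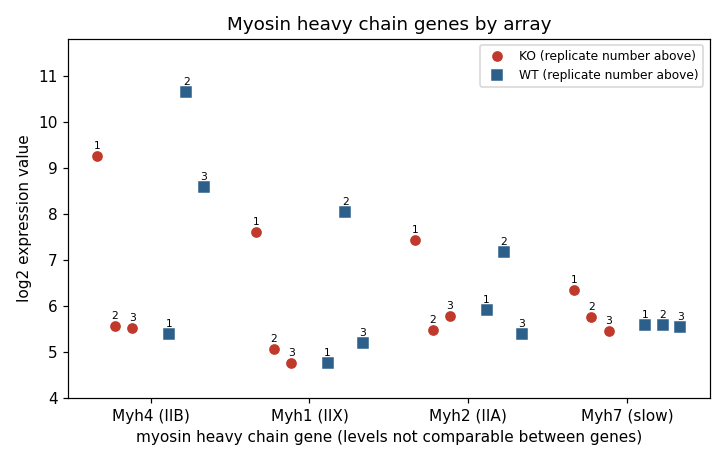
Log2 expression value (vertical axis) of 4 myosin heavy chain genes (horizontal axis), 1 point per array, with KO as circles, WT as squares and the replicate number above each point. KO replicate 1 and WT replicate 2 are high for Myh4, Myh1 and Myh2, WT replicate 3 is high for Myh4 only, and Myh7 spans 0.89.

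The light chains and myosin-binding proteins of the thick filament divided in the same way. Mylpf, the phosphorylatable light chain of fast fibres, was 7.91, 5.37 and 4.31 in KO replicates 1, 2 and 3, against 4.88, 8.73 and 6.86 in WT replicates 1, 2 and 3. Myl2, the slow and cardiac form, was 5.41, 5.08 and 5.18 in KO replicates 1, 2 and 3, against 4.98, 5.02 and 5.07 in WT replicates 1, 2 and 3. Mylpf spanned 4.42 and Myl2 0.42 on the log2 scale. Myl2 was the only member whose genotypes did not overlap, with its 3 KO arrays above its 3 WT arrays, by 0.20 (95% interval -0.05 to 0.45, limma adjusted p 0.624). Groups did not overlap in 13.9% of all genes, and the KO arrays were all above the WT arrays in 7.96%. All 6 Myl2 values lay below the median gene of their array. The groups of Myl2 overlapped once arrays were shifted to a common median or quantile-normalized again.

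Myl1, the alkali light chain of fast fibres, followed the fast genes on 5 arrays and departed on KO replicate 3. Its values were 11.27, 8.62 and 10.05 in KO replicates 1, 2 and 3, against 8.49, 11.56 and 10.88 in WT replicates 1, 2 and 3. KO replicate 3 was 1.42 above KO replicate 2, whereas the median of KO replicate 2 minus KO replicate 3 over the 13 fast genes was -0.01, positive for 6 of them. Mybpc2, fast myosin-binding protein C, was 7.83, 5.56 and 5.59 in KO replicates 1, 2 and 3, against 5.90, 9.09 and 7.36 in WT replicates 1, 2 and 3. Mybpc1, the form named for slow fibres but also made in fast ones, was 7.05, 5.42 and 5.36 in KO replicates 1, 2 and 3, against 5.58, 6.77 and 5.87 in WT replicates 1, 2 and 3. Mybpc1 was highest in KO replicate 1 and Mybpc2 in WT replicate 2, and they spanned 1.69 and 3.53.

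In the thin filament, Acta1 was 11.02, 8.01 and 7.79 in KO replicates 1, 2 and 3, against 7.15, 11.73 and 10.08 in WT replicates 1, 2 and 3. It averaged 8.94 ± 1.81 in KO and 9.65 ± 2.32 in WT (SD, n = 3 each), and the spread within each genotype was larger than the difference of -0.72 (SE 1.28, limma adjusted p 0.877). Tropomyosin gene Tpm2 and nebulin gene Neb, which encodes the protein that runs along the thin filament, had the same 3 high arrays. They spanned 2.88 and 3.68.

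Troponin, the calcium switch of the thin filament, has 3 subunits with a fast and a slow gene for each. The calcium-binding fast subunit gene Tnnc2 was 8.24, 6.07 and 6.40 in KO replicates 1, 2 and 3, against 6.49, 9.25 and 7.95 in WT replicates 1, 2 and 3. Its slow counterpart Tnnc1 was 5.91, 5.65 and 5.77 in KO replicates 1, 2 and 3, against 5.67, 5.87 and 5.99 in WT replicates 1, 2 and 3. Tnnc2 ranged over 9.07-fold and Tnnc1 over 1.27-fold between the highest and lowest mouse. For the inhibitory subunit, fast Tnni2 was 9.08, 7.36 and 7.09 in KO, against 7.38, 9.82 and 8.51 in WT, in replicate order. Slow Tnni1 was 6.28, 5.95 and 5.85 in KO, against 5.99, 6.02 and 6.30 in WT. The tropomyosin-binding fast subunit gene Tnnt3 was 9.71, 6.56 and 6.35 in KO, against 6.73, 10.76 and 8.79 in WT, and slow Tnnt1 was 5.41, 5.58 and 5.42 in KO, against 5.42, 5.59 and 5.74 in WT. In all 3 pairs the fast gene was highest in WT replicate 2, while the slow gene was highest in WT replicate 3. The KO minus WT differences of the slow genes were -0.06, -0.08 and -0.12, with 95% intervals of -0.35 to 0.22, -0.42 to 0.27 and -0.38 to 0.15.

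**Figure D2:**
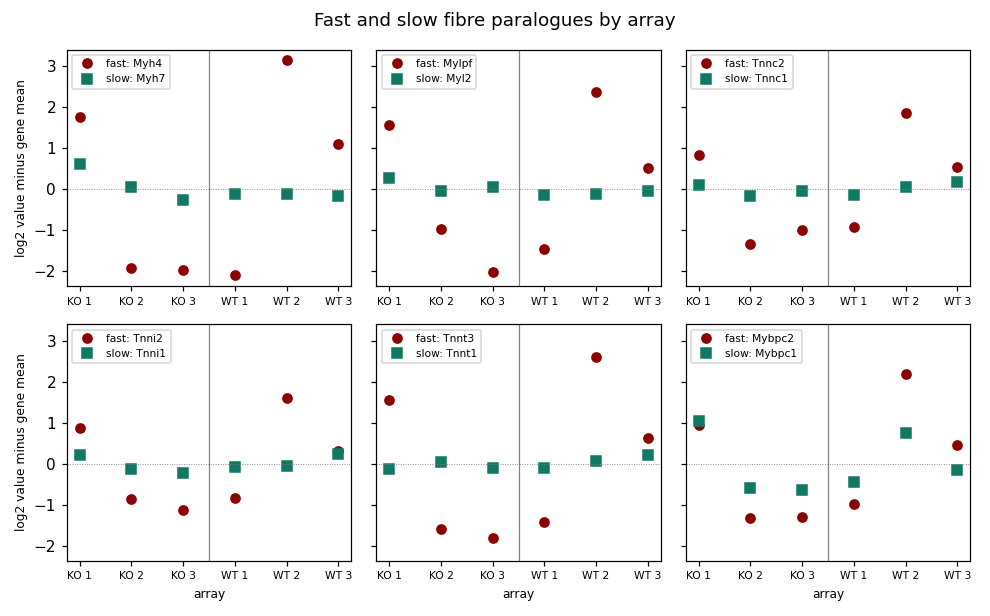
Each panel shows a fast (circles) and a slow (squares) gene of 1 protein, as the log2 value minus the gene's mean over 6 arrays (vertical axis) on each array (horizontal axis, KO left of WT). Fast genes span 2.73 to 5.25, and slow genes span 0.34 to 0.89, except Mybpc1 at 1.69.

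Most Z-disc genes had the high arrays of Acta1. Actn3, the actinin of fast fibres, was 9.08, 5.98 and 6.25 in KO replicates 1, 2 and 3, against 6.09, 10.47 and 8.73 in WT replicates 1, 2 and 3. Actn2, the actinin of all skeletal fibres and of the heart, was 7.48, 5.99 and 6.06 in KO replicates 1, 2 and 3, against 6.11, 7.02 and 6.39 in WT replicates 1, 2 and 3. Actn3 was highest in WT replicate 2 and Actn2 in KO replicate 1, and their differences between genotypes were -1.33 (SE 1.21) and 0.00 (SE 0.42). Titin, the elastic protein encoded by Ttn, was 8.50, 6.13 and 5.47 in KO replicates 1, 2 and 3, against 6.14, 9.51 and 7.49 in WT replicates 1, 2 and 3. The calcineurin-binding Z-disc gene Myoz1 spanned 3.37, the actin-crosslinking Myot 3.13, the actin-binding Xirp2 2.45 and the titin and actin partner Mypn 1.22. Tcap, the cap on titin at the Z-disc, did not follow them. It lay between 5.65 and 6.00 in KO and between 5.69 and 6.03 in WT, a span of 0.38.

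Genes that couple excitation to contraction moved less evenly. Casq1, the calcium store protein of fast fibres, was 8.92, 5.79 and 5.80 in KO replicates 1, 2 and 3, against 5.73, 9.87 and 7.99 in WT replicates 1, 2 and 3. Cacna1s, the voltage sensor of the transverse tubule, was 6.48, 5.64 and 5.47 in KO replicates 1, 2 and 3, against 5.68, 7.10 and 6.11 in WT replicates 1, 2 and 3. Both were highest in WT replicate 2, and Casq1 spanned 4.14 where Cacna1s spanned 1.63. Trdn, which ties the calcium store to its release channel, spanned 3.23. It had 19 probe sets, and 17 of them were highest in WT replicate 2, with spans from 0.46 to 5.11. Cacng1, a subunit of the same voltage sensor, spanned 0.85, and Jph1, which holds tubule and store membranes together, 0.68. Jsrp1, a partner of these proteins, was 7.09, 7.33 and 7.04 in KO replicates 1, 2 and 3, against 7.14, 7.00 and 7.09 in WT replicates 1, 2 and 3. Jsrp1 had the smallest span of all 38, at 0.33, and did not separate the mice in the order of the other genes.

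Genes of energy supply, oxygen storage and calcium buffering held the widest span of the list. Pvalb, the calcium buffer that speeds relaxation of fast fibres, was 9.54, 5.55 and 4.99 in KO replicates 1, 2 and 3, against 5.43, 10.88 and 9.34 in WT replicates 1, 2 and 3. Its highest value was at least 59.5-fold above its lowest, a lower bound if the lowest value lay at background, which was not tested. Its KO minus WT difference of -1.86 (SE 1.62, limma adjusted p 0.73) was the most negative of the list. Ckm was 10.34, 7.08 and 7.21 in KO replicates 1, 2 and 3, against 7.21, 11.30 and 9.57 in WT replicates 1, 2 and 3. It averaged 8.21 ± 1.84 in KO and 9.36 ± 2.05 in WT (SD, n = 3 each). Mb, which encodes the oxygen store myoglobin of slow and IIA fibres, was 7.50, 6.48 and 6.53 in KO replicates 1, 2 and 3, against 6.17, 7.05 and 6.49 in WT replicates 1, 2 and 3. Mb was highest in KO replicate 1 and spanned 1.33. The muscle glycogen phosphorylase Pygm, the muscle enolase Eno3 and the AMP deaminase Ampd1 spanned 3.03, 3.06 and 3.19, and all 3 were highest in WT replicate 2. Eno3 was lowest in KO replicate 3, at 7.32, below its 8.57 in KO replicate 2.

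**Figure D3:**
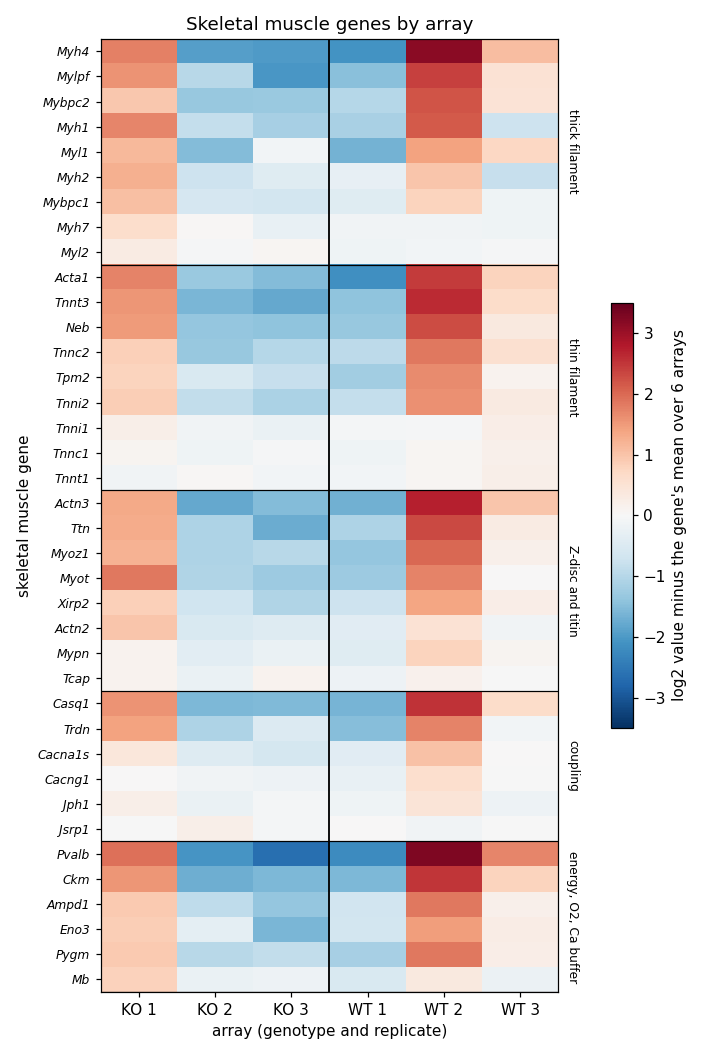
Each row is 1 of the 38 genes, grouped by role, each column is 1 array (KO left of WT), and the colour is the log2 value minus the gene's mean over 6 arrays. KO replicate 1, WT replicate 2 and WT replicate 3 are red for most genes, and Tnnc1, Tnni1, Tnnt1, Tcap and Jsrp1 are pale on all arrays.

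The members' mean level summarised these differences. It was 0.95, -0.82 and -0.90 in KO replicates 1, 2 and 3, against -0.90, 1.43 and 0.24 in WT replicates 1, 2 and 3. Of the 38 genes, 27 were highest in WT replicate 2, against 11.7% of all genes, and 7 were highest in KO replicate 1, against 12%. The order WT replicate 2, then KO replicate 1, then WT replicate 3 held for 25 members. In addition 1 member was highest in KO replicate 2 (11.1% of all genes), 3 in WT replicate 3 (18.9%), and 0 in KO replicate 3 (31.4%) or WT replicate 1 (14.9%). The low arrays had no such order. KO replicate 2 was lowest for 8 members (14.6% of all genes), KO replicate 3 for 15 (20.7%) and WT replicate 1 for 12 (8.97%). KO replicate 1, WT replicate 2 and WT replicate 3 were lowest for 1 each, against 14.1%, 21.4% and 20.2% of all genes. Spans over the 6 arrays were above 1 for 29 of 38 members, against 7.41% of all genes, and above 2 for 24, against 1.35%. The median span was 3.04 (8.24-fold) over the members and 0.42 (1.34-fold) over all genes.

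The 9 members with a span under 1 were the 5 slow fibre genes, Tcap, Cacng1, Jph1 and Jsrp1. On all 6 arrays 9 members lay below the median gene, against 45.8% of all genes. They were the 5 slow genes, Tcap and Jph1, which also had small spans, and Xirp2 and Mypn, which did not. The deposited values carry no detection call, so whether the slow genes were above background was not tested. Jsrp1 lay above the median gene on all 6 arrays, with a mean of 7.15 ± 0.15 in KO and 7.08 ± 0.07 in WT (SD, n = 3 each).

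The fast and slow lists were then set side by side. The level of the 13 fast fibre genes was 1.36, -1.35 and -1.35 in KO replicates 1, 2 and 3, against -1.36, 2.22 and 0.48 in WT replicates 1, 2 and 3. The level of the 5 slow fibre genes was 0.22, -0.04 and -0.11 in KO replicates 1, 2 and 3, against -0.12, -0.03 and 0.08 in WT replicates 1, 2 and 3. The fast list thus differed by 3.57 between the highest and lowest mouse and the slow list by 0.34, and the slow list was highest in KO replicate 1, where the fast list came second. Medians of the KO minus WT differences were -0.99 over the fast genes and -0.06 over the slow genes, against 0.01 over all genes. Single mice moved the fast value: it was -1.88 with KO replicate 1 left out, -0.57 with KO replicate 2 left out and -0.51 with KO replicate 3 left out. Leaving out WT replicate 1 gave -1.90, and leaving out WT replicate 2 gave -0.10. It was 0.61 with arrays weighted gene by gene, where KO replicate 1 had a weight of 2.15 and KO replicate 3 of 0.473.

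Differences between the high arrays varied from gene to gene. This comparison of single mice was chosen after the values were seen and has no replicates. Between KO replicate 1 and WT replicate 2, 12 of 13 fast genes were lower in KO replicate 1, with a median difference of -0.95. In the same pair 4 of 5 slow genes were higher in KO replicate 1, with a median of 0.26. All 5 slow genes lay below the median gene on all arrays, so low signal limits what this pair can show for them. Mb (0.45), Actn2 (0.45), Mybpc1 (0.28) and Myh2 (0.26) also ran higher in KO replicate 1, while Myh4 differed by -1.38 and Actn3 by -1.39. Between KO replicate 1 and WT replicate 3, Myh1 differed by 2.42, Myh2 by 2.03 and Myot by 1.85. In that pair Pvalb differed by only 0.19, Tnnc2 by 0.29 and Actn3 by 0.35. In WT replicate 3 Myh4 was thus high relative to WT replicate 1, by 3.19, while Myh1 differed from that mouse by 0.42 and Myh2 by -0.52.

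For KO against WT, 0 of 38 members passed limma at an adjusted p under 0.05, and 0% of all genes did. At an unadjusted p under 0.05 there were also 0 members in either direction, against 7.47% of all genes, 4.99% higher and 2.48% lower in KO. The members' adjusted p-values lay between 0.624 and 0.999. Of the 38, 32 had a negative difference, against 47% of all genes, and 6 a positive one, against 53%, but these genes are high and low on the same mice and their signs are not independent. The median difference was -0.40, and it was 0.02 without WT replicate 2, with 17 members negative, 20 positive and Mylpf at -0.00 once rounded. Leaving out KO replicate 1 gave -1.13, KO replicate 2 -0.20, KO replicate 3 -0.17 and WT replicate 1 -1.10. With gene-by-gene array weights it was 0.42, with 35 members positive. Standard errors ran from 0.11 for Jsrp1 to 1.62 for Pvalb, with a median of 0.75 over the members and 0.12 over all genes. For fast genes such as Myh4 the 95% interval ran -4.91 to 2.06, so a several-fold difference in either direction was not detectable with 3 mice a group.

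**Figure D4:**
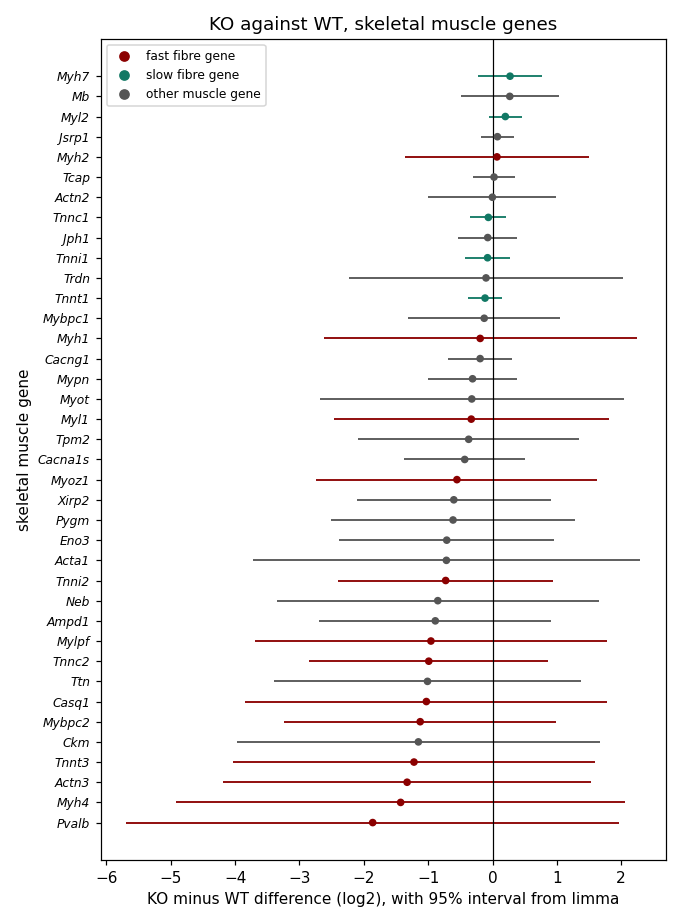
KO minus WT difference in log2 (horizontal axis, points) with its 95% interval from limma (lines) for each of the 38 genes (vertical axis), coloured by fibre type. All 38 intervals cross 0, and they are widest for Pvalb, Myh4 and Acta1.

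Skeletal muscle genes outside the list had the same 3 highest arrays, in the same order, though WT replicate 3 lay at their mean. The low arrays came in another order. Over 38 measured genes of sarcomere, calcium release and muscle metabolism the level was 0.41, -0.37 and -0.31 in KO replicates 1, 2 and 3, against -0.32, 0.59 and 0.00 in WT replicates 1, 2 and 3. WT replicate 2 was again highest and KO replicate 1 second. Of these genes 23 were highest in WT replicate 2, against 11.7% of all genes, and 17 had a span above 1, against 7.41%. On all arrays 17 of the 38 lay below the median gene, against 45.8% of all genes, so low signal limits what those can show. Atp2a1, the calcium pump of fast fibres, was 10.09, 6.26 and 6.01 in KO replicates 1, 2 and 3, against 6.19, 11.10 and 9.21 in WT replicates 1, 2 and 3. Ryr1, the calcium release channel, was 6.70, 5.77 and 5.59 in KO replicates 1, 2 and 3, against 5.60, 7.76 and 6.35 in WT replicates 1, 2 and 3. Atp2a1 spanned 5.09 and Ryr1 2.17, with the same 3 high arrays. Of the list, 9 differences between KO and WT were positive and 29 negative, with a median of -0.11. The genes with the smallest p were Asb2 (-0.24), Myoz3 (-0.21), Cav3 (-0.21) and Kbtbd12 (0.26), and none passed over all genes.

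The 10 genes outside the list whose profile over the 6 arrays lay closest to the members' mean were ranked by root mean square difference in log2. They were Pgam2, the muscle phosphoglycerate mutase (0.17), Hjv, known for iron control and made in liver and muscle (0.19), Tmod4, a cap of thin filaments (0.20), Pdlim3 (0.21), Klhl31 (0.23), Ryr1 (0.29), Tpm1 (0.31), Klhl41 (0.33), Cox6a2 (0.34) and Ppp1r3a (0.37). Of these, Pgam2, Tmod4, Ryr1, Klhl41 and Cox6a2 were in the other muscle list. Pgam2 was 7.42, 5.69 and 5.33 in KO replicates 1, 2 and 3, against 5.88, 7.99 and 6.85 in WT replicates 1, 2 and 3. Hjv was 7.04, 5.65 and 5.43 in KO replicates 1, 2 and 3, against 5.61, 7.45 and 6.65 in WT replicates 1, 2 and 3. Both had WT replicate 2 highest and KO replicate 1 second, as the members did.

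Slow fibre genes outside the list differed little between mice, apart from KO replicate 1. Over 8 genes the level was 0.20, 0.00 and -0.03 in KO replicates 1, 2 and 3, against -0.10, -0.01 and -0.06 in WT replicates 1, 2 and 3. Myoz2, the Z-disc gene of slow and cardiac muscle, was 5.29, 4.05 and 4.56 in KO replicates 1, 2 and 3, against 4.11, 4.20 and 3.91 in WT replicates 1, 2 and 3. Casq2, the slow and cardiac calcium store protein, was 5.68, 5.18 and 5.21 in KO replicates 1, 2 and 3, against 4.83, 4.78 and 4.93 in WT replicates 1, 2 and 3. KO replicate 1 was the highest array for both, and for 4 of the 8 genes in all. Among the 5 slow members it was highest for 2, Myh7 and Myl2, while WT replicate 3 was highest for 3. Of the 8 genes, 6 lay below the median gene on all arrays, so low signal limits what they can show. Casq2 differed by 0.51 (SE 0.15, limma adjusted p 0.622) and Tpm3 by -0.34 (SE 0.13, limma adjusted p 0.622), and neither passed over all genes. Genotypes did not overlap for Casq2, with KO above WT, or for Tpm3, with KO below WT. The same held in either direction for 13.9% of all genes. Tpm3 was 11.06, 11.24 and 10.79 in KO replicates 1, 2 and 3, against 11.35, 11.32 and 11.43 in WT replicates 1, 2 and 3. It was lowest in KO replicate 3 and next lowest in KO replicate 1, as was the T cell level (-2.07 and -0.29). How much of the Tpm3 signal came from muscle was not tested. The list had 5 positive and 3 negative differences, with a median of 0.12.

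Genes of the heart differed little between mice, and those of muscle precursors varied without a shared order. The level of 9 cardiac genes lay between -0.01 and 0.03 in KO and between -0.11 and 0.05 in WT, and all 9 lay below the median gene on all arrays. Myh6, the atrial myosin chain, was 5.25, 5.28 and 5.24 in KO, against 5.17, 5.23 and 5.44 in WT, and Nppa, the atrial natriuretic peptide gene, was 5.63, 5.78 and 5.86 in KO, against 5.83, 5.63 and 6.00 in WT. The level of 14 myogenic regulators and satellite cell genes lay between -0.17 and 0.10 in KO and between -0.01 and 0.07 in WT. Pax7, the satellite cell marker, was 5.84, 5.95 and 5.99 in KO, against 6.11, 5.95 and 6.00 in WT. In that list 2 genes had a span above 1, Des and Mef2c. Des, the intermediate filament desmin of muscle fibres and their precursors, was 8.30, 7.62 and 8.02 in KO, against 7.82, 8.70 and 8.23 in WT, and its 3 highest arrays were those of the members, in the same order. Mef2c, a transcription factor of muscle that lymphocytes also use, was 8.80, 9.07 and 7.76 in KO, against 9.05, 8.86 and 9.30 in WT, lowest in KO replicate 3, where T and B cell genes were also lowest. The regulators Myf6 and Eya4 spanned 0.97 and 0.94. Of 10 neuromuscular junction genes, Colq, the collagen tail of acetylcholinesterase, differed by -0.61 (SE 0.20, limma adjusted p 0.622) and had the smallest p. Colq was 6.59, 7.17 and 6.39 in KO, against 7.39, 7.16 and 7.42 in WT. Its arrays came in the order of the T cell level and not in that of the muscle genes. How much of the Colq signal came from muscle was not tested. Of these 10 genes 9 lay below the median gene on all arrays, against 45.8% of all genes. Actc1, the actin of heart and of developing muscle, stood out in a list of 5 developmental genes. It was 8.57, 6.68 and 7.11 in KO replicates 1, 2 and 3, against 6.92, 10.29 and 9.18 in WT replicates 1, 2 and 3, with the same high arrays as Acta1, and differed by -1.35 (SE 0.86, limma adjusted p 0.647). The other 4 genes of that list, Myh3, Myh8, Myl4 and Ncam1, spanned at most 0.50.

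Markers of other cells of the depot did not follow the order of the muscle genes. Over 14 white adipocyte genes the level was 0.03, -0.03 and 0.20 in KO, against -0.05, 0.09 and -0.24 in WT, and the adipokine gene Adipoq was 12.46, 12.24 and 12.68 in KO, against 12.37, 12.52 and 12.52 in WT. The T cell level was -0.29, 0.56 and -2.07 in KO, against 0.57, 0.50 and 0.74 in WT, over 13 genes, and the B cell level 0.11, 0.82 and -3.35 in KO, against 0.87, 0.63 and 0.93 in WT, over 10 genes. WT replicates 1 and 2 were at 0.57 and 0.50 for T cell genes, although their muscle levels were -0.90 and 1.43. Smooth muscle genes, 10 in number, lay at 0.02, -0.07 and 0.29 in KO, against -0.27, -0.02 and 0.05 in WT, highest in KO replicate 3. Among them Myh11, the smooth muscle myosin, differed by 0.34 (SE 0.11, limma adjusted p 0.622) and Acta2, smooth muscle actin, by 0.20. Epidermal genes spanned 0.35 in level, Schwann cell and nerve genes 0.33, and fibroblast and tendon genes 0.25. Their median differences were -0.06 over 9 genes, 0.26 over 4 and 0.02 over 10. Of the 9 epidermal genes 3 were highest in WT replicate 2, against 11.7% of all genes. On all arrays 8 of the 9 lay below the median gene, against 45.8% of all genes. Krt5 and Krt14 were among those highest in WT replicate 2, at 6.43 and 6.93, where muscle genes were also highest. Lor, of the same list, was lowest there, at 4.90. The part of epidermal genes in the muscle result was not tested.

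**Figure D5:**
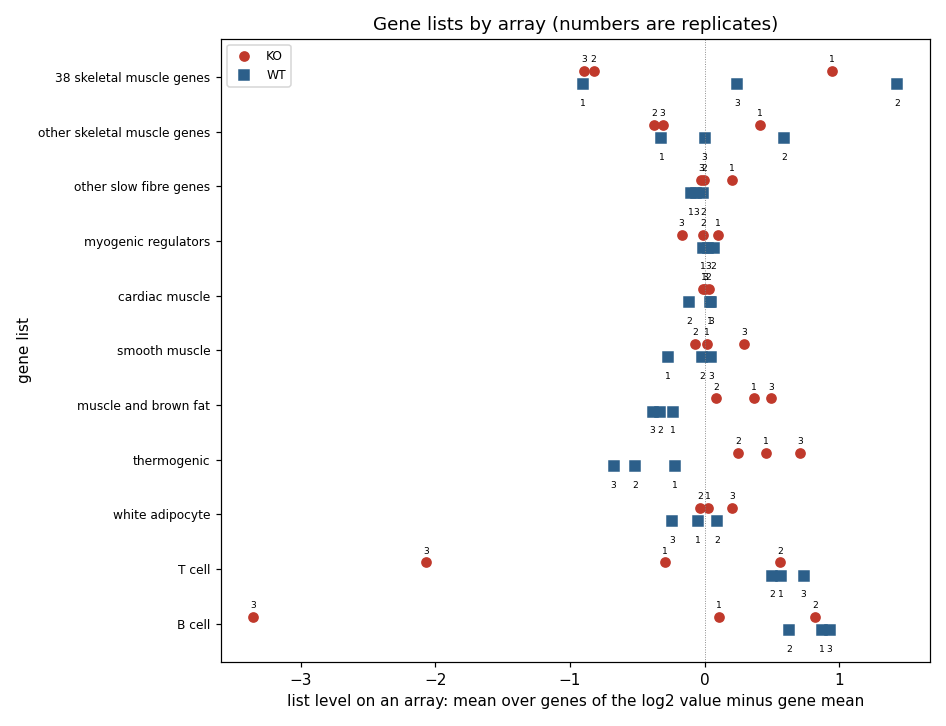
Level of each gene list on each array (horizontal axis, mean over genes of the log2 value minus the gene's mean over 6 arrays) for 11 lists (vertical axis), with KO as circles, WT as squares and replicate numbers beside the points. Muscle levels range from -0.90 in WT replicate 1 to 1.43 in WT replicate 2 with genotypes interleaved, while thermogenic levels are above 0 in all KO arrays and below 0 in all WT arrays.

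Several genes are used by both muscle and brown fat, and their order of mice was set beside that of the muscle genes. Over 11 such genes the level was 0.37, 0.09 and 0.49 in KO replicates 1, 2 and 3, against -0.24, -0.33 and -0.39 in WT replicates 1, 2 and 3. The 3 KO arrays were all above the 3 WT arrays, and KO replicate 2, at -0.82 for the muscle members, was among the higher ones here. Cox7a1, which encodes a respiratory chain subunit found in muscle and brown fat, was 10.51, 10.31 and 10.85 in KO replicates 1, 2 and 3, against 9.16, 9.18 and 8.80 in WT replicates 1, 2 and 3. It differed by 1.51 (SE 0.17, limma adjusted p 0.237), and by 1.50 with the muscle members' level as a covariate. Ucp1, the uncoupling protein of brown and beige fat, was 9.36, 8.76 and 9.65 in KO replicates 1, 2 and 3, against 7.04, 5.97 and 6.05 in WT replicates 1, 2 and 3. Its difference was 2.91 (SE 0.33, limma adjusted p 0.237), and 2.79 with that covariate. Neither passed over all genes without the covariate or with it (limma adjusted p 0.787 each with it). No gene at all passed in the fit with the covariate, which was added after seeing the data. Whether muscle content had a part in these differences was not tested. Ckmt2, the mitochondrial creatine kinase of muscle and fat, behaved otherwise. It was 6.31, 4.59 and 4.80 in KO replicates 1, 2 and 3, against 4.60, 5.63 and 4.88 in WT replicates 1, 2 and 3, high in KO replicate 1 and WT replicate 2, and its difference was 0.20 without the covariate and 0.52 with it. Before adjustment, 6 of the 11 shared genes had p under 0.05 with KO above WT and 0 with KO below, against 4.99% and 2.48% of all genes, and the median difference was 0.54. The 10 thermogenic genes, which include Cox7a1 again, gave 6 and 0, with a median of 0.82.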

How the data were processed

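Arrays of inguinal fat from 3 KO and 3 WT mice were deposited by the authors as log2 values of 34760 probe sets. The tools RMA, affy and limma are listed, per the submitters' processing notes. Quantile normalization, a step of RMA, would hide a change common to most genes. Tool versions and the annotation build are not stated in those notes. The platform annotation gave 21640 probe sets 1 symbol, 1321 several and 11799 none, and 19855 of 19937 genes matched RefSeq GRCm38.p6 by Entrez identifier. Each gene was its probe set with the highest mean. Groups and replicates came from sample titles, and the series description calls the replicates mice.

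KO was compared with WT by limma 3.58.1 under R 4.3.3 (lmFit, eBayes, two-sided, no filter), with Benjamini-Hochberg adjustment over 19937 genes at 0.05. Lists were described by counts, medians and mean centred levels, with no test. In simulated KO against WT data over 19937 genes, 200 of them changed, limma called 78.2% of genes given a log2 change of 1 and 97.2% of those given 2, and 4.92% of calls were false. Spreads there came from the fitted prior, and the muscle genes vary more between mice than that.

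The members and lists were chosen with earlier results of these data known. Named genes were all members, for every other list at most 4 genes ranked by p, and the 10 nearest profiles. Atp2a1, Nppa, Pax7, Acta2, Ckmt2, Adipoq, Myh6, Myl4, Des, Eya4, Myf6, Smpx, Myod1, Myog and the microRNA genes fall outside this rule and were chosen after their values were seen. Alternatives were other normalizations, a filter on dim genes, the mean of probe sets, other variance priors, array weights, a replicate block, a lymphocyte covariate and leaving out each array. A covariate of the muscle level was added after seeing the data. Same-numbered arrays of the 2 groups deviated from their group means with correlations of -0.143, -0.079 and -0.045, which gave no sign that the numbers pair the mice. A shared litter, day or batch was not tested. The number of arrays limits the precision.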

Additional observations from a re-analysis of the deposited data

How the results depend on the processing

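Counts of genes called over all genes stayed at 0 in each direction, except 1 lower with the mean of all probe sets, which was Atf7 itself. Members at an unadjusted p under 0.05 were 0 to 1 higher and 0 to 3 lower in KO without each array in turn. Those higher were Myl2 without KO replicate 2 and Myh7 without KO replicate 3, and those lower were Actn3, Pvalb and Mypn without WT replicate 1. With gene-by-gene array weights 2 were higher, Myh7 and Myl2, and the slow gene median was 0.08. None of these passed over all genes. Members whose groups do not overlap numbered 1 (Myl2), 0 with a common median, with quantile normalization or with the filter on dim genes, and 1 to 13 without each array in turn, 13 being the count without KO replicate 1, where 19.2% of all genes did not overlap. Leaving out another array gave 1 or 2 members, against 20.2% to 38.3% of all genes, so these counts cannot be set against the 13.9% with all arrays. The members' median difference ran from -1.13 to 0.02 without each array, was -0.87 with the filter on dim genes, which kept 20 members, and -0.24 with the lymphocyte covariate. Fast minus slow was -0.93, from -1.79 to -0.05 without each array, 0.52 with array weights and -1.09 over the 6 paralogue pairs. The filter on dim genes kept none of the slow genes, so it gave no slow median. The span of the muscle level, 2.33, was 0.97 over muscle genes outside the members, 3.57 over fast genes and 0.34 over slow genes. The replicate block left the members' median at -0.40 and the counts of calls at 0, and the numbers were not found to pair the mice. The cause of the sign change with array weights was not tested. Low signal, below the median gene on all arrays, limits what the slow genes, Tcap, Jph1, Xirp2 and Mypn can show.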

Other observations

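Some muscle genes outside the lists' main pattern were chosen after their values were seen. Myf6, the myogenic regulator that is most abundant in mature fibres, was 6.14, 5.27 and 5.29 in KO replicates 1, 2 and 3, against 5.19, 6.15 and 5.21 in WT replicates 1, 2 and 3. It was high in KO replicate 1 and WT replicate 2 and not in WT replicate 3, as Myh1 and Myh2 were; the other arrays came in a different order in each of these genes. Smpx, a small protein of muscle fibres, was 6.68, 4.80 and 4.95 in KO replicates 1, 2 and 3, against 4.69, 6.40 and 4.95 in WT replicates 1, 2 and 3, with the same pair of high arrays. Myod1 and Myog, regulators of myoblast commitment and differentiation, spanned 0.23 and 0.25.

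Probe sets for genes of muscle microRNAs had low values on all arrays and did not follow the muscle genes. Mir1a-1 lay between 2.30 and 2.77 in KO and between 2.29 and 2.49 in WT, Mir133a-2 between 3.06 and 3.41 in KO and between 3.23 and 3.49 in WT, and Mir206 between 2.22 and 2.58 in KO and between 2.22 and 2.37 in WT. Whether these probe sets measure mature microRNA was not tested.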
